A study of Mus musculus with 8 samples.

Results

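The proteasome genes were followed in lens RNA of mouse embryos at embryonic day 15.5 (E15.5). Members were all probe sets of the array whose platform annotation gives 1 gene alone with a symbol that starts with Psma, Psmb, Psmc, Psmd, Psme, Psmf or Psmg and a digit. There were 85 such probe sets for 48 genes, among 22626 probe sets tested and 12393 genes named alone. Psmc3ip, a meiotic recombination factor, and Psme3ip1, which binds the activator Psme3, meet this rule by their spelling and are not subunits. They are given as a class of their own, which leaves 83 probe sets. A further probe set names Psme2 together with Psme2b, and no value is given for it.

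The wild type group held 4 samples of embryonic lenses and the dnBrg1 group 4 samples of transgenic embryonic lenses, all at E15.5 and labeled as mixed background. Brg1 is the ATPase of SWI/SNF complexes, which remodel chromatin, and dnBrg1 is a mutant of it that blocks the normal protein because of a point mutation in its ATP binding site. It was made from a fragment of the αA-crystallin promoter that is active in postmitotic lens fiber cells, and 1 heterozygous line, B3, was carried forward with littermates as wild type controls. The transgene was therefore present in 1 integrant, and the epithelium and any other cells in the dissected lens are not its stated target. Each RNA was amplified and hybridized to 1 Affymetrix mouse genome array. Because whole lenses were used, fewer cells of a type and less RNA per cell cannot be told apart.

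The proteasome degrades proteins that carry ubiquitin chains. Its barrel-shaped core has outer rings of alpha subunits, which gate the entrance, and inner rings of beta subunits, some of which are proteases. The regulatory particle on the barrel has a base, with a ring of ATPases that unfold the substrate, and a lid that removes ubiquitin. Other activators can replace the regulatory particle, and chaperones assist assembly and then leave. In the lens, the ubiquitin pathway acts in differentiating fiber cells, which have to clear proteins and organelles.

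All values are log2 intensities unless named otherwise. Log2 fold changes are given as the dnBrg1 mean minus the wild type mean, followed by ± and their standard error. A probe set was called when its limma p-value, adjusted by the Benjamini-Hochberg method over all 22626 probe sets, was under 0.05. Bright means a mean at or above the median of all probe set means, 7.69. The files hold no detection calls, and 15 bacterial control probe sets, for which lens RNA has no target, had means between 2.67 and 4.88.

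Several facts of the arrays touch the results. Smarca4, which encodes Brg1, had a brighter probe set with values of 10.98, 10.63, 10.82 and 11.01 in wild type and 10.73, 10.55, 10.64 and 10.55 in dnBrg1 lenses (-0.24 ± 0.11, adjusted p = 0.12). The dimmer one had values of 7.25, 6.79, 7.87 and 7.63 in wild type and 9.67, 9.65, 9.73 and 9.88 in dnBrg1 lenses (2.35 ± 0.21, adjusted p = 4.8e-05). Replicate arrays correlated at 0.982 to 0.991 over all probe sets in wild type and at 0.991 to 0.994 in dnBrg1 lenses, and the median array intensity lay between 196.9 and 209.1 on the linear scale. The 3' minus 5' log2 difference of the Gapdh and β-actin array controls, averaged over both genes, ran from 1.43 in wild type replicate 3 to 2.66 in wild type replicate 2, and from 0.59 to 0.65 in dnBrg1 lenses. This measure, which is high where transcripts are short or partly copied, did not overlap between the genotypes, so genotype and control difference can be told apart only through the spread within wild type. A fit with this control difference as a covariate lost 43 of the 52 proteasome calls given next. Its log2 fold changes are given beside the named proteasome calls that it turned or moved by over 1.5 times. Outside the proteasome they are given only for genes that work with it, by the brightest probe set. The descriptions also name polysome-bound RNA for the wild type samples and dnBrg1 replicates 1 and 2, and total RNA for dnBrg1 replicates 3 and 4. The molecule and source labels give total RNA for all 8 samples, and the study's methods name total RNA. Which of these labels is right could not be settled.

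Proteasome transcripts were more often upregulated than downregulated in dnBrg1 lenses. Of 85 probe sets, 42 in 34 genes were called higher and 10 in 7 genes lower, and 33 were not called. Over all probe sets 19.8% were called higher and 21% lower. The median log2 fold change was 0.37 among the proteasome probe sets and -0.08 over all. Without Psmc3ip and Psme3ip1, 40 were higher and 10 lower, with a median of 0.32. The increases ran from 1.33-fold to 6.22-fold with a median of 2.03-fold, and 22 reached 2-fold. The decreases ran from 1.32-fold to 2.95-fold with a median of 1.43-fold, and 1 reached 2-fold. All 4 dnBrg1 samples lay above all 4 wild type samples in 46 probe sets and below them in 11, against 19.5% and 20.6% of all probe sets.

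Each gene was also read from its brightest probe set. On this reading 27 of 48 genes were higher, 4 were lower and 17 were not called, with a median log2 fold change of 0.53. Over all 12393 genes 17.5% were higher and 23.3% lower, with a median of -0.11. Brightness goes with calls on these arrays, since among bright probe sets 27.7% were higher and 25.8% lower. The proteasome is bright in the lens: 65 of its 85 probe sets were above the median, and of these 38 were higher and 8 lower, with a median of 0.68. The 20 dim probe sets gave 4 increases and 2 decreases, with a median of -0.085. That is 20% and 10%, against 19.8% and 21% over all probe sets, bright and dim.

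**Figure D1:**
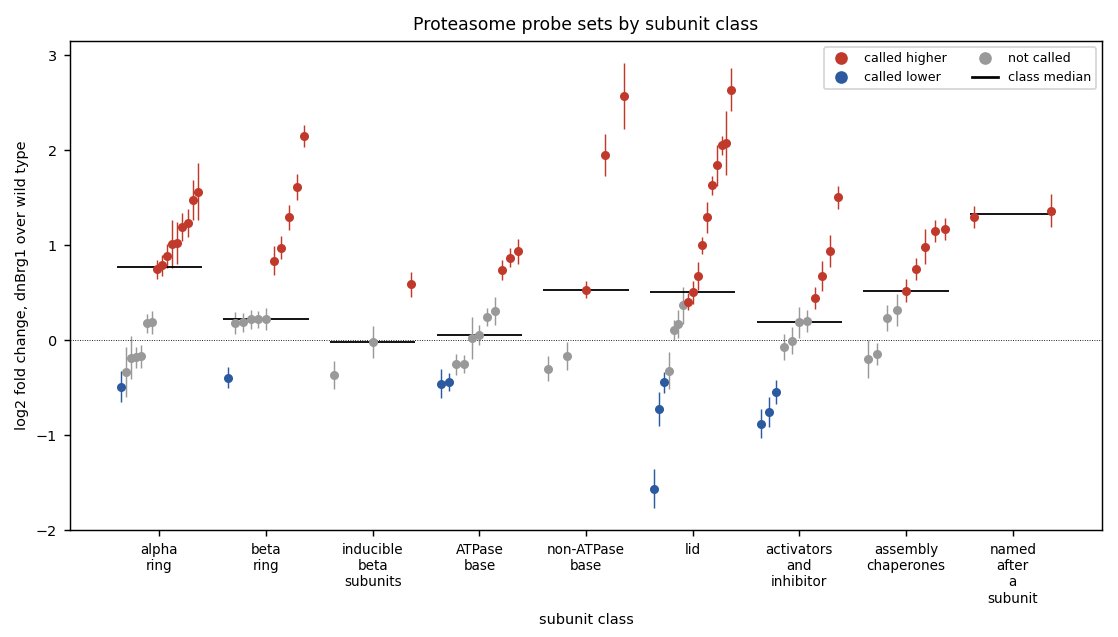
Log2 fold change, dnBrg1 over wild type (vertical axis), of the 85 proteasome probe sets by subunit class (horizontal axis); points are probe sets, vertical bars are standard errors from 4 samples per group and horizontal bars are class medians. The alpha ring holds 9 and the lid 10 of the 42 increases, with medians of 0.77 and 0.50, and the ATPase base has a median of 0.05.

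The alpha ring forms the gate of the core and the surface on which regulators dock. Of its 16 probe sets for 8 genes, 9 were higher, 1 was lower and 6 were not called, and the median was 0.77. By the brightest probe set, Psma1 (0.79 ± 0.11), Psma2 (1.20 ± 0.15), Psma4 (1.48 ± 0.21), Psma5 (1.02 ± 0.22) and Psma7 (0.89 ± 0.13) rose. In the covariate fit none of these 5 was called, Psma5 turned to -0.29 (-0.21 by 1424681_a_at), and Psma2, Psma4 and Psma7 were at 0.46, 0.27 and 0.34. Psma4 had values of 10.49, 9.66, 10.75 and 10.33 in wild type and 11.93, 11.72, 11.83 and 11.67 in dnBrg1 lenses, a 2.79-fold difference without overlap (adjusted p = 0.00047). Psma3 had a fold change of 0.18 (adjusted p = 0.18). Psma6 was read by 4 probe sets: 1416506_at rose (0.75 ± 0.10, adjusted p = 0.00034), while the brightest, 1437144_x_at, was at -0.17 (adjusted p = 0.30) and the other two at -0.18 and -0.34. Psma8, an alpha subunit known from the testis, was dim, with 6.12, 6.09, 5.63 and 5.55 in wild type and 5.52, 5.30, 5.52 and 5.10 in dnBrg1 lenses (-0.49 ± 0.17, adjusted p = 0.041). This lower call was lost on leaving out wild type replicate 1 or 2 or any of the dnBrg1 samples, with adjusted p-values up to 0.11 (0.021 to 0.87 over all alternatives), and the covariate fit put it at -0.14.

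The beta ring carries the proteolytic sites. Of 11 probe sets for 7 genes, 5 were higher, 1 was lower and 5 were not called, with a median of 0.22. By the brightest probe set of each gene, the alpha ring had a median of 0.84, with 5 of 8 genes higher. The beta ring also had a median of 0.84 on this reading, with 4 of 7 genes higher and 1 lower. Psmb2, a structural subunit of this ring, has 1 probe set, with values of 10.20, 9.92, 10.29 and 10.10 in wild type and 12.37, 12.28, 12.10 and 12.36 in dnBrg1 lenses. The groups lay far apart and each was tight, with a 4.44-fold increase (2.15 ± 0.12, adjusted p = 9.7e-06). Its adjusted p was the smallest of the proteasome probe sets, together with that of Psmd11 by 1429370_a_at. Among the catalytic subunits, Psmb6 rose 2.45-fold (1.29 ± 0.13, adjusted p = 9.3e-05) and Psmb7 rose 1.79-fold (0.84 ± 0.15, adjusted p = 0.0022). Neither was called in the covariate fit, where Psmb6 was at 0.63 and Psmb7 at 0.0055. Psmb5, the catalytic subunit with chymotrypsin-like activity, was at 0.22 ± 0.11 (adjusted p = 0.15). Psmb1 rose by its brightest probe set (0.98 ± 0.12), and the other two were at 0.18 and 0.19. In the covariate fit the brightest was at 0.48 and not called.

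Psmb3 and Psmb4, which are structural, were read differently by their probe sets. Psmb3 had 10.67, 10.25, 10.80 and 10.38 in wild type and 12.05, 12.02, 12.31 and 12.19 in dnBrg1 lenses by 1417052_at (1.61 ± 0.14, adjusted p = 4.2e-05). Its brighter probe set 1460198_a_at was at 0.22 ± 0.09 (adjusted p = 0.072). Psmb4 had 12.95, 13.12, 12.70 and 12.99 in wild type and 12.59, 12.48, 12.63 and 12.48 in dnBrg1 lenses by 1438984_x_at (-0.40 ± 0.11, adjusted p = 0.020), without overlap between the groups. The decrease was no longer called without dnBrg1 replicate 2 (adjusted p = 0.0524) or replicate 4 (adjusted p = 0.0559), and over all alternatives its adjusted p ran from 0.0047 to 0.87. The other Psmb4 probe set was at 0.22 ± 0.10 (adjusted p = 0.11). The covariate fit put Psmb3 by 1417052_at at 0.93 and turned Psmb4 by 1438984_x_at to 0.068, and called neither.

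Psmb8, Psmb9 and Psmb10 replace catalytic beta subunits in the immunoproteasome, a form induced by interferon. Of these, only Psmb9 was called. Psmb9 was dim, with 4.52, 4.38, 4.37 and 4.68 in wild type and 4.88, 4.99, 5.38 and 5.06 in dnBrg1 lenses (0.59 ± 0.13, adjusted p = 0.0064), so its wild type values lay within the range of the bacterial controls. Psmb8 had 6.04, 6.15, 6.39 and 6.49 in wild type and 6.08, 5.57, 5.96 and 5.99 in dnBrg1 lenses, which overlap (-0.37 ± 0.15, adjusted p = 0.076). Psmb10 had 9.50, 8.71, 9.41 and 9.08 in wild type and 9.14, 9.08, 9.21 and 9.17 in dnBrg1 lenses (-0.02 ± 0.17, adjusted p = 0.93). In a list of interferon response genes, 12 of 14 were measured by a probe set of their own, and 2 (B2m, 0.63, and Bst2, 0.65) were higher and 2 (Tapbp, -0.78, and Irf9, -0.61) lower. That is 16.7% in each direction, against 17.5% higher and 23.3% lower over all genes by the brightest probe set.

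The 6 ATPases of the base had 11 probe sets, of which 3 were higher, 2 were lower and 6 were not called, with a median of 0.05. That is 27.3% higher and 18.2% lower. Of these 11, 9 were bright, and over all bright probe sets 27.7% were higher and 25.8% lower. Psmc1 (0.87 ± 0.10, adjusted p = 0.00017), Psmc2 (0.74 ± 0.11, adjusted p = 0.0005) and Psmc3 (0.94 ± 0.13, adjusted p = 0.00046) rose by 1 probe set each. For Psmc2 this was not the brightest probe set, which was at -0.25 ± 0.09 (adjusted p = 0.058) and was called lower without wild type replicate 3 (-0.30, adjusted p = 0.028; 0.018 to 0.88 over all alternatives). Psmc4 had 13.05, 13.10, 12.94 and 13.10 in wild type and 12.67, 12.59, 12.69 and 12.49 in dnBrg1 lenses by its brighter probe set (-0.44 ± 0.10, adjusted p = 0.0053), and 0.05 ± 0.11 by the other. The groups did not overlap by the brighter Psmc4 probe set. Psmc6 had 9.78, 10.31, 9.84 and 10.11 in wild type and 9.74, 9.34, 9.71 and 9.41 in dnBrg1 lenses by 1417770_s_at (-0.46 ± 0.15, adjusted p = 0.037). Its call was lost without wild type replicate 2 or 4 or dnBrg1 replicate 2 or 4, with adjusted p-values of 0.082 to 0.098 (0.022 to 0.84 over all alternatives). The brightest Psmc6 probe set was at 0.25 (adjusted p = 0.064) and was called higher without wild type replicate 2 (0.29, adjusted p = 0.045; 0.020 to 0.29 over all alternatives). Psmc5 was at 0.31 (adjusted p = 0.13) and was called higher without wild type replicate 3 (0.40, adjusted p = 0.046; 0.046 to 0.33 over all alternatives). These probe sets of Psmc2, Psmc3 and Psmc4 were at 0.41, 0.36 and -0.25 in the covariate fit and that of Psmc6 turned to 0.13, and none of the 4 was called.

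Beside the ATPases, the base holds the scaffolds Psmd1 and Psmd2 and the ubiquitin receptor Psmd4. Psmd4 was read by 3 probe sets. By 1418874_a_at, the brightest, it had 11.08, 10.19, 11.29 and 10.56 in wild type and 12.69, 12.68, 12.74 and 12.80 in dnBrg1 lenses (1.95 ± 0.22, adjusted p = 0.00014). By 1425859_a_at it had 9.55, 8.34, 10.18 and 8.63 in wild type and 11.69, 11.66, 11.82 and 11.81 in dnBrg1 lenses, a 5.94-fold increase (2.57 ± 0.35, adjusted p = 0.0004). In both, wild type replicate 3 was the highest and replicate 2 the lowest of the wild type samples, and the dnBrg1 samples differed little among themselves. By the dim 1451725_a_at it had 5.48, 5.77, 5.59 and 5.38 in wild type and 5.35, 5.75, 5.10 and 5.36 in dnBrg1 lenses, with overlap (-0.17 ± 0.15, adjusted p = 0.41). Both bright probe sets were not called in the covariate fit, at 0.62 and 0.32. Psmd2 rose 1.45-fold (0.53 ± 0.09, adjusted p = 0.0015), and Psmd1 was at -0.30 ± 0.13 (adjusted p = 0.10). Psmd1 was called lower without dnBrg1 replicate 4 (-0.40, adjusted p = 0.040; 0.040 to 0.58 over all alternatives).

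The lid had 17 probe sets for 8 genes, of which 10 were higher, 3 were lower and 4 were not called, with a median of 0.50. By the brightest probe set, 6 of the 8 genes rose and none fell. Psmd14, the enzyme that removes ubiquitin chains, rose 2-fold, from 11.50, 11.44, 11.60 and 11.48 in wild type to 12.54, 12.43, 12.55 and 12.49 in dnBrg1 lenses (standard error 0.09 on the log2 scale, adjusted p = 4.8e-05). Psmd7 is the partner with which Psmd14 pairs. By its brightest probe set 1451056_at, Psmd7 had 8.37, 7.15, 9.07 and 7.89 in wild type and 10.18, 10.15, 10.23 and 10.23 in dnBrg1 lenses (2.08 ± 0.33, adjusted p = 0.0010). The wild type samples spanned nearly as much as the difference itself, with an SD of 0.81 against 0.04 in dnBrg1 lenses, although the groups did not overlap. The dim Psmd7 probe set 1454368_at had 4.89, 4.41, 5.05 and 4.65 in wild type and 5.62, 5.40, 5.28 and 5.40 in dnBrg1 lenses (0.68 ± 0.15, adjusted p = 0.0057). The dim 1432820_at had 5.27, 5.35, 5.35 and 5.15 in wild type and 5.32, 5.81, 5.29 and 6.18 in dnBrg1 lenses, with overlap (0.37 ± 0.19, adjusted p = 0.16).

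The other lid subunits are mainly structural. Psmd8 had 11.06, 10.86, 11.12 and 11.04 in wild type and 12.64, 12.57, 12.76 and 12.62 in dnBrg1 lenses, a 3.10-fold increase with a small spread in both groups (1.63 ± 0.10, adjusted p = 1e-05). Psmd13 had 9.42, 8.77, 9.73 and 8.75 in wild type and 10.96, 10.98, 11.13 and 10.98 in dnBrg1 lenses by 1422459_a_at (1.84 ± 0.21, adjusted p = 0.00018), and its other probe set rose as well (1.30 ± 0.16). The Psmd13 groups were separate by both probe sets. Psmd12 rose 1.42-fold (0.50 ± 0.12, adjusted p = 0.010), and Psmd3 was at 0.17 ± 0.15 (adjusted p = 0.37). In the covariate fit Psmd13 was at 0.61 and 0.53 and Psmd12 at 0.93, and Psmd7 turned to -0.14 and -0.061, none of them called.

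**Figure D2:**
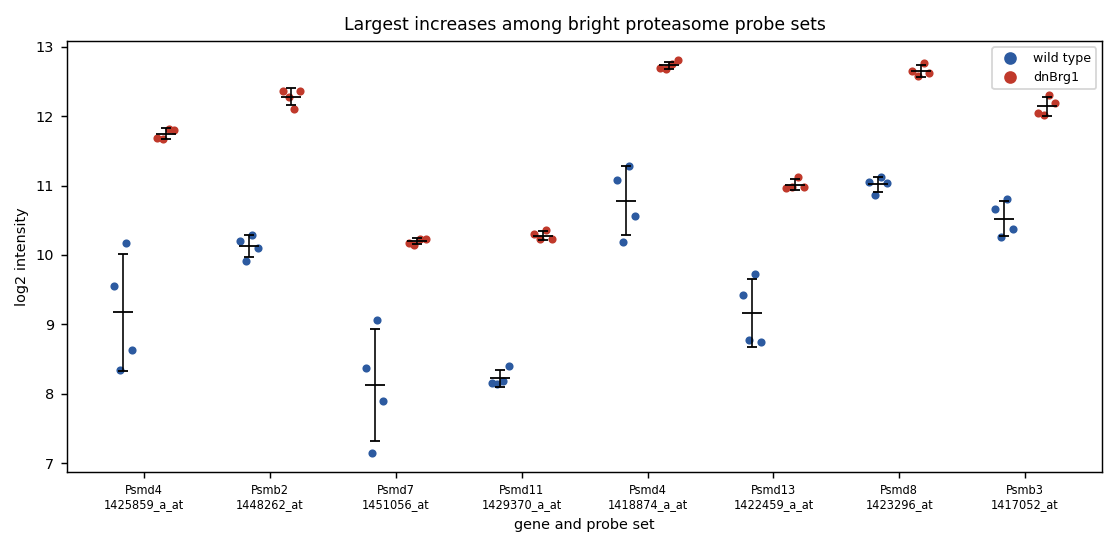
Log2 intensity (vertical axis) in each sample of the 8 bright proteasome probe sets with the largest increases (horizontal axis, gene and probe set), with wild type in blue and dnBrg1 in red; each point is 1 lens sample, and the bars give the mean and SD per group of 4. The wild type samples of Psmd4 1425859_a_at and Psmd7 spread widely (SD 0.85 and 0.81), and those of Psmb2, Psmd8 and Psmd11 do not (SD 0.16, 0.11 and 0.12).

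Psmd11, a lid subunit that clamps the regulatory particle to the core, gave calls in opposite directions. By 1429370_a_at it had 8.16, 8.14, 8.19 and 8.41 in wild type and 10.30, 10.23, 10.36 and 10.23 in dnBrg1 lenses (2.05 ± 0.10, adjusted p = 9.7e-06). By the dimmer 1456104_at it had 6.01, 5.62, 6.86 and 6.23 in wild type and 8.84, 8.82, 8.90 and 8.71 in dnBrg1 lenses, the 6.22-fold increase that was the largest of all members (2.64 ± 0.23, adjusted p = 3.9e-05). Both probe sets separated the genotypes by more than the whole range of either group. By the bright 1440253_at it had 11.88, 11.40, 11.64 and 11.46 in wild type and 10.50, 10.66, 11.12 and 11.17 in dnBrg1 lenses (-0.73 ± 0.18, adjusted p = 0.0098). By the dim 1431013_at it had 6.03, 6.04, 6.21 and 5.58 in wild type and 4.17, 4.97, 4.17 and 4.31 in dnBrg1 lenses (-1.56 ± 0.21, adjusted p = 0.00034). These are decreases, again without overlap. The covariate fit called neither decrease, with 1440253_at at -1.15 and 1431013_at at -1.84, and kept both increases, with 1456104_at at 1.35. The brightest by mean, 1437080_s_at, had 11.35, 11.49, 11.14 and 11.42 in wild type and 11.41, 11.48, 11.51 and 11.44 in dnBrg1 lenses (0.11 ± 0.10, adjusted p = 0.43), and 1456059_at had 7.70, 8.44, 7.45 and 7.73 against 7.36, 7.62, 7.49 and 7.57 (-0.32 ± 0.20, adjusted p = 0.22). The sources used here do not give the transcripts or transcript ends that these probe sets read, so a level of the whole Psmd11 gene cannot be stated.

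Psmd6, another lid subunit, was the only other gene with probe sets called in opposite directions. By 1423697_at it had 12.49, 12.46, 12.54 and 12.48 in wild type and 12.88, 12.86, 12.91 and 12.96 in dnBrg1 lenses (0.41 ± 0.09, adjusted p = 0.0045). By 1423696_a_at it had 12.57, 12.55, 12.32 and 12.52 in wild type and 12.18, 11.97, 12.15 and 11.89 in dnBrg1 lenses (-0.45 ± 0.11, adjusted p = 0.010). The groups did not overlap in either, and both changes were small. Neither was called in the covariate fit, which put 1423696_a_at at -0.20. Among the 21 genes with several probe sets, 3 (Psma5, Psma7 and Psmd13) were called the same way by every probe set, 16 were called one way by some of them, and 2 were called both ways. The remaining 27 genes have 1 probe set each.

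**Figure D3:**
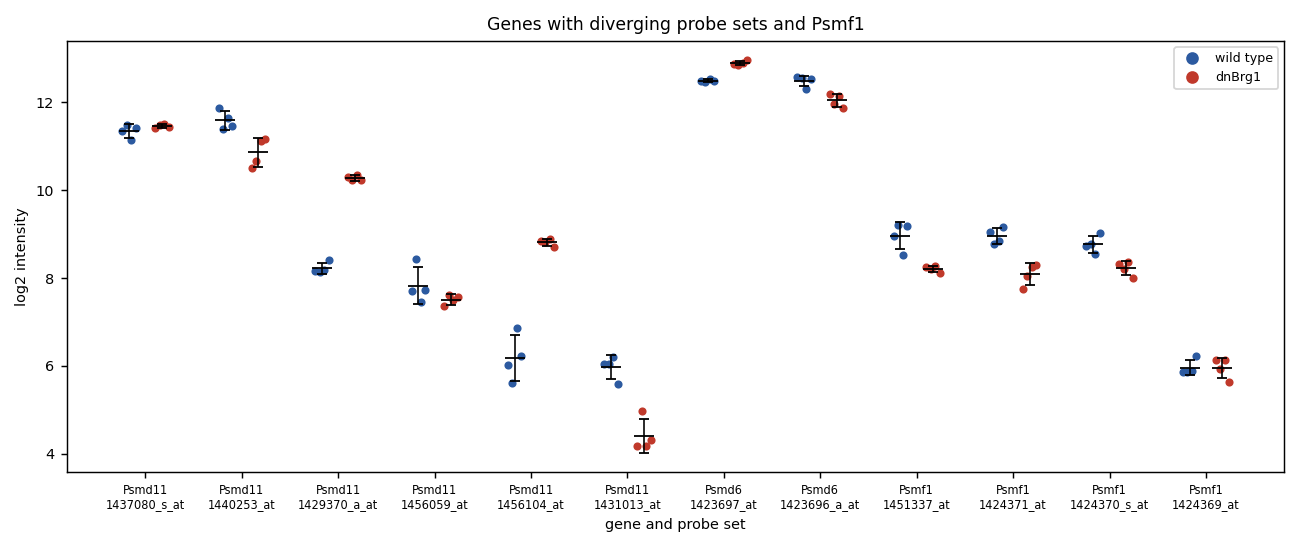
Log2 intensity (vertical axis) in each sample for all probe sets of Psmd11, Psmd6 and Psmf1 (horizontal axis, gene and probe set), with wild type in blue and dnBrg1 in red; each point is 1 lens sample, and the bars give the mean and SD per group of 4. Psmd11 and Psmd6 each have probe sets that rise and probe sets that fall, while 3 of the 4 Psmf1 probe sets fall.

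The activators and the inhibitor had 11 probe sets for 4 genes, of which 4 were higher, 3 were lower and 4 were not called, with a median of 0.19. That is 36.4% higher and 27.3% lower. Of these 11, 9 were bright, and over all bright probe sets 27.7% were higher and 25.8% lower. Psme1, a subunit of the interferon-inducible activator, rose 2.84-fold, from 10.58, 10.47, 10.60 and 10.18 in wild type to 12.04, 11.87, 12.08 and 11.87 in dnBrg1 lenses (1.51 ± 0.12, adjusted p = 3e-05). Psme3, the nuclear activator, rose by 1 of 3 probe sets (0.68 ± 0.16), while the brightest was at -0.07. Psme4, an activator linked to histone degradation, rose by 2 of 3 (0.45 ± 0.11 and 0.94 ± 0.17), while the brightest was at 0.20. These Psme3 and Psme4 increases were not called in the covariate fit, where Psme3 was at 0.20 and Psme4 by 1426824_at at 0.22. All 3 decreases were those of Psmf1, an inhibitor of the isolated core.

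Psmf1 was the one gene with several decreases and no increase. By 1451337_at, its brightest probe set, it had 8.97, 9.20, 8.52 and 9.19 in wild type and 8.25, 8.20, 8.28 and 8.12 in dnBrg1 lenses (-0.76 ± 0.15, adjusted p = 0.0038). By 1424371_at it had 9.06, 8.78, 8.84 and 9.17 in wild type and 7.75, 8.04, 8.26 and 8.30 in dnBrg1 lenses (-0.88 ± 0.15, adjusted p = 0.0014). By 1424370_s_at it had 8.74, 8.77, 8.55 and 9.02 in wild type and 8.32, 8.21, 8.36 and 8.01 in dnBrg1 lenses (-0.55 ± 0.13, adjusted p = 0.0082). All 3 separate the genotypes without overlap. None was called in the covariate fit, which turned 1451337_at to 0.039 and put 1424370_s_at at -0.23. The dim 1424369_at did not pass, with 5.87, 5.85, 5.88 and 6.22 in wild type and 6.12, 5.92, 6.13 and 5.64 in dnBrg1 lenses (adjusted p = 0.98).

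The assembly chaperones had 9 probe sets for 7 genes, of which 5 were higher, none was lower and 4 were not called, with a median of 0.52. Of the chaperones of the core, Psmg1 (0.98 ± 0.18), Psmg2 by 1425373_a_at (1.15 ± 0.12) and Psmg3 (1.17 ± 0.12) rose, with adjusted p-values of 0.0024, 9e-05 and 8.2e-05. Psmg4 was at -0.14 ± 0.12 (adjusted p = 0.35). The brighter Psmg2 probe set was at 0.32 ± 0.17 (adjusted p = 0.16). Of the chaperones of the base, Psmd9 (0.52 ± 0.12, adjusted p = 0.0077) and Psmd10 (0.75 ± 0.12, adjusted p = 0.00078) rose, and Psmd5 was at 0.23 ± 0.14 (adjusted p = 0.21). Psmc3ip (1.37 ± 0.18) and Psme3ip1 (1.30 ± 0.12), which are not subunits, rose as well. In the covariate fit Psmd9, Psmd10 and Psmc3ip were at 0.27, 0.30 and 0.41, none of them called.

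**Figure D4:**
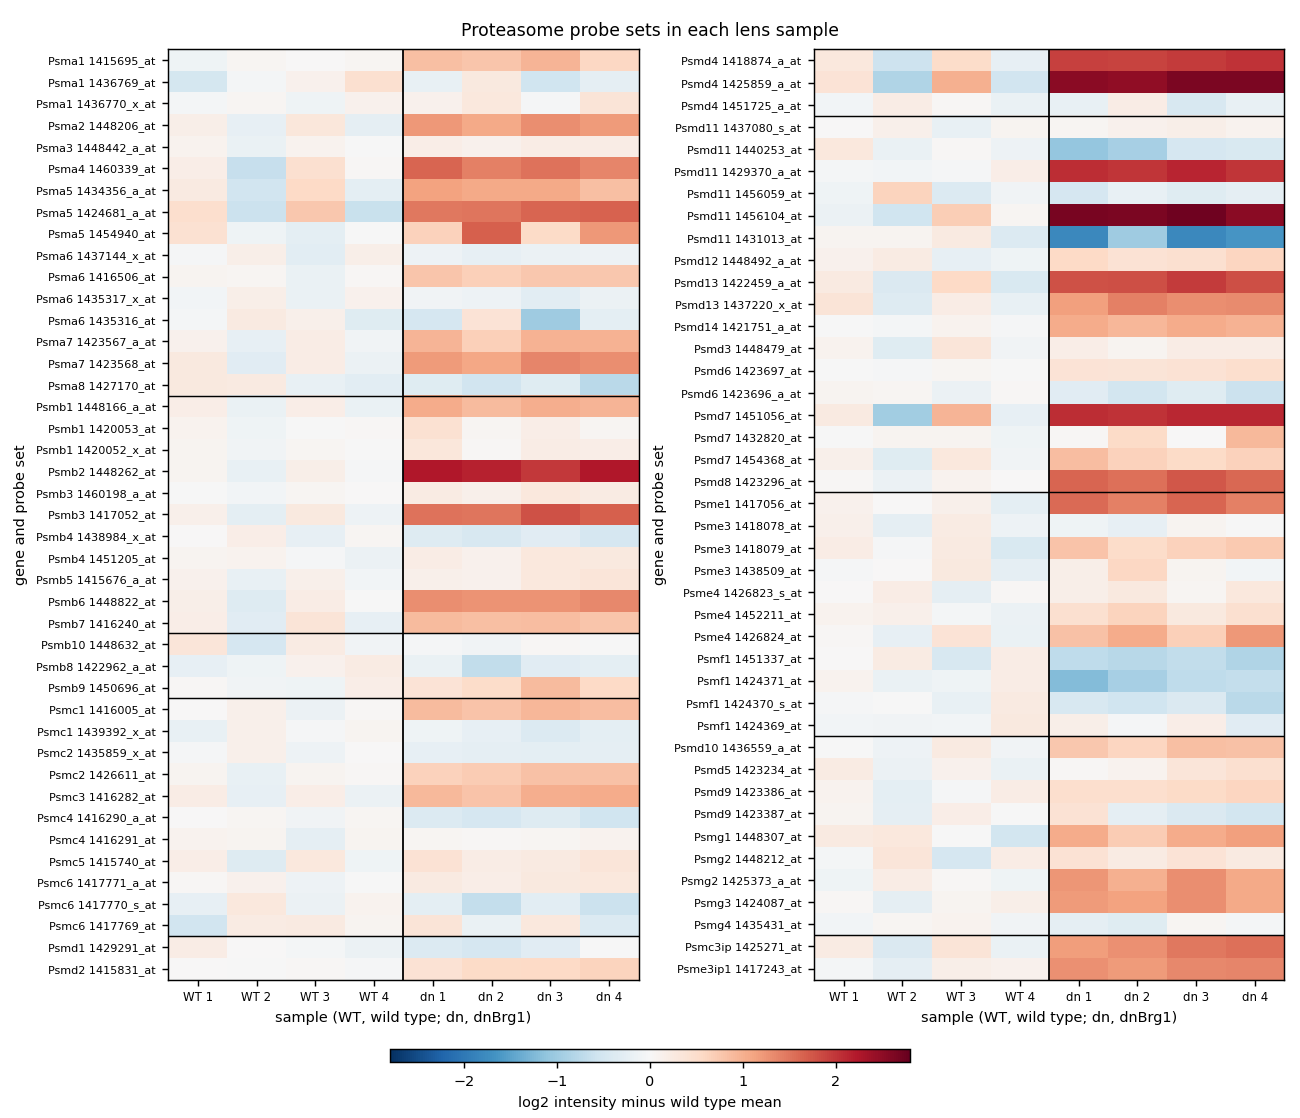
Log2 intensity minus the wild type mean of the same probe set (color, blue below and red above it) for all 85 proteasome probe sets (vertical axis, gene and probe set, with horizontal lines between classes) in wild type (WT) and dnBrg1 (dn) replicates 1 to 4 (horizontal axis). The dnBrg1 samples resemble each other within most of the 42 probe sets called higher, while wild type replicates 2 and 3 often lie on opposite sides of the wild type mean.

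The wild type samples varied more than the dnBrg1 samples. The median SD over the proteasome probe sets was 0.20 in wild type and 0.11 in dnBrg1 lenses, against 0.23 and 0.15 over all probe sets. Among the 42 probe sets called higher, wild type replicate 3 was the highest wild type sample in 27 and replicate 2 the lowest in 26, and 20 showed both. Over all probe sets called higher, these shares were 54.9% and 50%. Among the 10 called lower, replicate 3 was the lowest wild type sample in 5 and replicate 2 the highest in 4. Over all probe sets called lower, these shares were 46.2% and 41.4%. These 2 samples have the smallest and the largest control 3' minus 5' difference of the wild type group.

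With that control difference as a covariate in the fit, 10 proteasome probe sets were higher and none was lower. Of the 52 calls 9 were kept, 43 were lost and 1, Psmg2 by 1448212_at (1.26), was added. The kept increases were those of Psmb2 (1.73), Psmd8 (1.34), Psmd14 (0.82), Psmc1 (1.20), Psme1 (1.25), Psma6 by 1416506_at (0.99), Psmg2 by 1425373_a_at (1.32) and Psmd11 by 1429370_a_at (2.06) and 1456104_at (1.35). Their adjusted p-values with the covariate were between 0.0115 and 0.0416, the highest of any alternative for each. Of the lost calls, 7 also changed sign, and none passed in the new direction. By class, 4 increases were kept or added in the lid, 2 in the chaperones and 1 each in the alpha ring, the beta ring, the ATPase base and the activators. Over all probe sets 808 were then higher and 634 lower. How much of the difference between the genotypes the control difference accounts for was not tested beyond this fit.

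**Figure D5:**
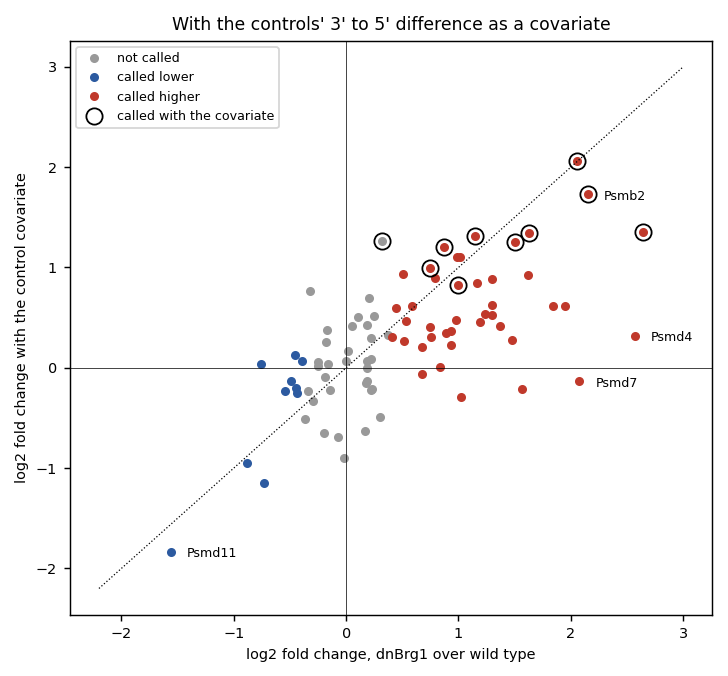
Log2 fold change, dnBrg1 over wild type, of the 85 proteasome probe sets fitted with the 3' minus 5' difference of the controls as a covariate (vertical axis) against the same without it (horizontal axis); the dotted line marks equal values, colors give the call without the covariate and rings mark calls with it. Psmb2 lies near the line at 2.15 and 1.73, while Psmd7 falls from 2.08 to -0.14 and Psmd4 from 2.57 to 0.32.

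The described RNA fraction could be compared only within the dnBrg1 group. With only dnBrg1 replicates 1 and 2, described as polysome bound, 37 proteasome probe sets were higher and 4 lower, with a median log2 fold change of 0.38, and over all 22626 probe sets 3040 were higher and 2600 lower, with a median of -0.069. With only dnBrg1 replicates 3 and 4, described as total RNA, 38 were higher and 4 lower, with a median of 0.40, and over all probe sets 3111 were higher and 2825 lower, with a median of -0.092.

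Genes that work with the proteasome were read from a list of 28, of which 19 had a probe set of their own. By the brightest probe set 11 rose, 3 fell and 5 were not called, with a median of 0.59. All 19 were bright, and over all bright probe sets 27.7% were higher and 25.8% lower. Vcp, the ATPase that extracts ubiquitinated proteins, had 10.96, 10.43, 11.31 and 10.72 in wild type and 12.44, 12.39, 12.64 and 12.67 in dnBrg1 lenses (1.68 ± 0.18, adjusted p = 0.00011). Sem1, a small lid subunit whose symbol does not follow the rule (1.38 ± 0.16), Ubqln1, a shuttle for ubiquitinated proteins (1.24 ± 0.11), and Uchl5, a deubiquitinase of the regulatory particle (1.21 ± 0.15), rose too. The other Uchl5 probe set, with a mean of 2.82 in the range of the bacterial controls, was called lower (-0.35 ± 0.10, adjusted p = 0.018). Zfand2a, a zinc finger protein that binds the proteasome, fell (-1.65 ± 0.15), although 1 of its 4 probe sets rose (0.67 ± 0.13). Akirin2, which takes part in nuclear import of the proteasome (-0.58 ± 0.16), and Txnl1, a thioredoxin-like protein of the regulatory particle (-0.42 ± 0.09), fell by their brightest probe sets, while 1 other Txnl1 probe set rose (0.92 ± 0.11). Dim Txnl1 probe sets were also called lower (-0.46 ± 0.12 and -0.39 ± 0.09). In the covariate fit Vcp was at 0.65, Sem1 at 0.46, Ubqln1 at 0.82 and Uchl5 at 0.37. By their brightest probe sets Zfand2a was at -0.94 and Txnl1 at -0.21, and Akirin2 turned to 0.29. None of these genes was called there.

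Nfe2l1, the transcription factor that raises proteasome genes when proteasome activity is low, was at -0.01 ± 0.14 (adjusted p = 0.95), with values of 11.48, 11.19, 11.79 and 11.49 in wild type and 11.44, 11.64, 11.28 and 11.55 in dnBrg1 lenses. Its relative Nfe2l2, the regulator of the antioxidant response, rose (0.48 ± 0.13, adjusted p = 0.017). Ngly1, which processes the Nfe2l1 protein, also rose (0.59 ± 0.10, adjusted p = 0.0015), as did Pomp, the maturation factor of the core (0.59 ± 0.15, adjusted p = 0.012). With the control covariate, Nfe2l2 was the one partner gene that kept its call (1.09), and Pomp turned to -0.17.

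Promoter windows of 250 bases before to 50 after the start were taken from RefSeq on GRCm38.p6. They matched 40 of the 48 genes, with 43 windows, and Psmb2 and Psmd7 had none. Both strands were searched for TGACNNNGC, the core of the antioxidant response element that Nfe2l1 and Nfe2l2 bind. It stood in 6 of the 43 windows (14%) and in 12.4% of 32851 windows of all genes. CCAAT, the box bound by NF-Y, stood in 15 (34.9%, against 37.4% of all), and GAANNTTC, a pair of heat shock element units, in 3 (6.98%, against 7.86% of all). Of the 23 windows of genes called higher by the brightest probe set, 3 held the antioxidant core, 10 the CCAAT box and 1 the heat shock pair. The 17 windows of genes not called held them in 3, 5 and 1, and the 3 windows of genes called lower in 0, 0 and 1. A match describes the letters only. The sequences below are the last 150 bases before the start of a strongly raised gene of the base (Psmd4), a catalytic beta subunit (Psmb6), a raised lid gene without any of these motifs in these bases (Psmd8) and the inhibitor that fell (Psmf1). They are written 5′ to 3′ on the gene's strand, with the matched letters in capitals: a CCAAT box on the opposite strand for Psmd4, the antioxidant core for Psmb6 and the heat shock pair for Psmf1, beginning at -95, -9 and -70 from the start.
Psmd4, chr3:95042615-95042764, minus strand: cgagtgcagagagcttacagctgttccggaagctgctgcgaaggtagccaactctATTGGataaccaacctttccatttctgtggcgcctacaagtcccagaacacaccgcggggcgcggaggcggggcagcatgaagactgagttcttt
Psmb6, chr11:70525207-70525356, plus strand: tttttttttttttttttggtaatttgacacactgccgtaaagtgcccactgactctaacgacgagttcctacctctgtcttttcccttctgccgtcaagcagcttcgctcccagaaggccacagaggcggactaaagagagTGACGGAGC
Psmd8, chr7:29180674-29180823, minus strand: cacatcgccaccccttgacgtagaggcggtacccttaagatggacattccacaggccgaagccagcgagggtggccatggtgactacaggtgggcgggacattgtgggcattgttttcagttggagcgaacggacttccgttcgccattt
Psmf1, chr2:151741311-151741460, minus strand: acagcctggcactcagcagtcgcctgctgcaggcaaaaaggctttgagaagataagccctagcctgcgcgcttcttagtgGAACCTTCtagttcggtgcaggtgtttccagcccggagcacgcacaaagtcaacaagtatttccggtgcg

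Affymetrix marks probe sets whose probes may match other transcripts. Of the 53 proteasome probe sets with no such mark, 29 were higher and 5 lower, and of the 20 marked _a, which read several transcripts of 1 gene, 12 were higher and 2 lower. Of the 4 marked _s and the 8 marked _x, which may read other genes, 1 was higher and 3 were lower. The decreases of Psmb4, Psmc6 and, by 1 probe set, Psmf1 rest on such probe sets.

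Markers of other cells in the dissected tissue were read by the brightest probe set of each gene. Over all genes this reading gave 17.5% higher and 23.3% lower. Of 10 myeloid markers, 3 (Cx3cr1, Fcgr3 and Lyz2) were higher and 4 (C1qb, Csf1r, Ptprc and Tyrobp) lower, with a median log2 fold change of 0.09. Their summed linear intensity was 8757 to 10823 in wild type and 2609 to 5329 in dnBrg1 lenses. The brightest of them in wild type were C1qb (mean 12.03) and Csf1r (mean 11.86), which both fell and make up most of the wild type sums. The sums therefore follow mainly these genes and not the 10 markers alike. All 3 measured retina markers, of 5 listed, were lower, with sums of 5599 to 6462 and 2576 to 3334. Of 5 vessel markers 1 was higher and 2 were lower (sums 3455 to 3768 and 2742 to 3463), and neither the 4 measured mesenchyme markers nor the 4 surface ectoderm markers held a call. The mesenchyme sums were 1548 to 4528 in wild type and 745 to 9391 in dnBrg1 lenses, and those of surface ectoderm 182 to 303 and 186 to 2942. Lens fiber markers were bright in every sample, with sums of 73442 to 79449 and 78407 to 85336 over 5 of 7 genes, of which 1 was higher and 1 lower. Of 4 lens epithelium markers 2 were higher and 1, Npnt, was lower (sums 9028 to 10167 and 10293 to 12305). Npnt fell by its brightest probe set (-0.79), was at -0.07 by the next, and rose by its dimmer probe sets (0.69, 1.07 and 1.13). The vessel marker Flt1, counted as lower, fell by its brighter probe sets (-0.71 and -1.22) and rose by the dimmest (0.45). The part of these cells in the proteasome values was not tested.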

How the data were processed

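Whole lens RNA (4 wild type and 4 dnBrg1 samples) was amplified with NuGEN reagents and hybridized to Affymetrix mouse genome arrays. The authors normalized the scans with robust multichip average (RMA, version not given in the sources used here). The deposited values, intensities on a linear scale from 3.64 to 28468.2, were taken to log2. RMA makes the arrays' distributions alike, so a shift shared by most transcripts would be removed. Groups came from the sample titles. According to the design text these are biological replicates.

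Of 22690 probe sets, 64 array controls were left out. Of the 22626 tested, 20380 name 1 gene, 691 several and 1555 none. The linear models were those of limma 3.58.1 (lmFit, then eBayes, two-sided) in R 4.3.3 for the difference of dnBrg1 from wild type, with no covariate, block or filter. The threshold was 0.05 after Benjamini-Hochberg adjustment over all of them. Precision is limited by the number of arrays. The fit was tested on simulated data. The proteasome members, their classes and the marker and partner lists were chosen with earlier results of these data known. A list is described by counts and medians, without a test.

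Values in every sample are given for Psmb2, Psmd7, Psmd4, Psmb8, Psmb9 and Psmb10, for bright called probe sets without overlap (the 8 largest increases and the 8 largest decreases), and for genes called in both directions. Psma4, Psma8, Psmd14, Psme1, the fourth Psmf1 probe set, Vcp and Nfe2l1 were added after their values were seen, as was the naming of partner genes that were not called or lie outside the 4 largest changes each way. Alternatives covered scaling (array medians, quantiles), 16 added before taking log2, bright probe sets only, a variance trend with robust fitting, array weights, omission of each sample, the replicate block, the described RNA fraction, the 3' minus 5' difference of the controls as a covariate, stricter thresholds, the methods' t-test, and the mean of a gene's probe sets. Other arrays of the study were not used here.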

Additional observations from a re-analysis of the deposited data

Results flagged for a closer look

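Each group of 4 samples was checked for a value that stands apart, by Dixon's ratio, in all 85 proteasome probe sets. Of 170 groups 5 held such a value (2.94%), where chance gives about 1 in 20. The increase of Psma7 by 1423567_a_at includes dnBrg1 replicate 2, which was low at 12.43 against 12.73 for the nearest sample. The increase of Psmd13 by 1422459_a_at includes dnBrg1 replicate 3, which was high at 11.13 against 10.98. Psmc4 by 1416291_at had wild type replicate 3 low at 12.09 against 12.42, and Psmd3 had dnBrg1 replicate 2 low at 10.47 against 10.59. Psmf1 by its dim probe set 1424369_at had wild type replicate 4 high at 6.22 against 5.88. The calls of these 5 probe sets did not change when that sample was left out. The causes were not tested.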

How the results depend on the processing

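Of the 42 increases, all were kept when any of the samples was left out. Leaving out each sample gave 42 to 43 proteasome probe sets called higher and 7 to 11 lower, and 27 to 28 genes higher and 2 to 5 lower by the brightest probe set, against 42, 10, 27 and 4 with all samples. Over all probe sets these fits gave 3924 to 4978 higher and 3776 to 5194 lower. The 2 genes lower were found without dnBrg1 replicate 2. With the 3' minus 5' difference of the controls as a covariate, 10 probe sets and 6 genes were higher and 0 probe sets and 0 genes lower. The log2 fold changes that turned there were those of Psma5 (-0.29 by 1434356_a_at and -0.21 by 1424681_a_at), Psmd7 (-0.14 by 1451056_at and -0.061 by 1454368_at), Psmb4 (0.068), Psmc6 (0.13) and Psmf1 by 1451337_at (0.039), with adjusted p-values of 0.53 to 0.94; the cause was not tested. With only the dnBrg1 samples described as polysome bound, 4 probe sets and 1 gene were lower. With only those described as total RNA, 4 and 2 were lower. These fits hold fewer samples. An adjusted p under 0.01 left 39 probe sets higher and 6 lower (3211 and 2820 over all probe sets), and 2 genes lower. A change of at least 1.5-fold left 37 probe sets higher and 4 lower (3349 and 2996 over all), and 1 gene lower. The mean of a gene's probe sets left 2 genes lower. Centering arrays on their medians moved the median of all probe sets from -0.08 to -0.12 and gave 42 higher and 12 lower (4279 and 5397 over all probe sets). The methods' t-test gave 47 and 12 unadjusted (4908 and 5709 over all probe sets) and 44 and 9 after Benjamini-Hochberg adjustment (4074 and 4171 over all). The replicate numbers did not pair the samples (correlations of same-numbered deviations -0.19, -0.01, -0.05 and 0.16). The replicate block gave 42 higher and 8 lower (4064 and 3899 over all probe sets). Low intensity limits the 20 dim probe sets, of which 6 were called.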
